A study of Mus musculus with 5 samples.

Results

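Gene signals of marrow taken 11 days after total body irradiation (11 DAI) were compared with those of sham-irradiated marrow (0 DAI). The comparison used 2 of the 5 arrays of the series, 1 for each group, and took all probes that carry 1 gene symbol, which were 34885 of 45281. The mice were male BALB/c, an inbred strain, with no altered gene named for them, aged 7 to 8 weeks. The group at 11 DAI had received 4 Gy of gamma-rays, once, over the whole body, and the sham group had been handled without the dose. Whole marrow of both tibias was collected from several mice per time, with no sorting of cell types, so each array shows a mixture of cells. The other 3 arrays, of 3, 7 and 21 DAI, are given below where they place a value at 11 DAI among its neighbours in time.

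Each probe is a short sequence on beads that binds labelled cRNA, and its signal is the brightness left after background subtraction. The brightest probe stood for its gene, which gave 19057 genes. Signals under 64 were set to 64, called the floor here, and the log2 ratio of the signal at 11 DAI to that at 0 DAI was taken for the 8304 genes with at least 1 signal above the floor. Of all probes with 1 symbol, 12454 had a ratio, and 1 probe entered for each gene. A gene was counted as higher or lower at a log2 ratio of at least 1 in size, that is, 2-fold. Where 1 of the 2 signals lay under the floor, the ratio is a bound, written as at least or at most. With 1 array a group there is no error, no SD and no test, and every difference below is one between 2 arrays. In a mixture of cells, fewer cells of a type cannot be told apart from less RNA per cell.

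Bone marrow makes the cells of the blood, and dividing precursors are lost soon after a dose of this kind, after which the surviving stem and progenitor cells refill the tissue. Interferons are cytokines that bind receptors on nearly every cell. Their receptors pass the signal through JAK kinases and STAT and IRF transcription factors to a large set of target genes, which hinder viruses and raise the display of peptides on MHC class I molecules. In marrow, interferons are also known to act on hematopoietic stem cells.

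Marrow at 11 DAI exceeded sham marrow by 2-fold or more in 498 of the 8304 genes, which is 6.0%, and fell short of it by 2-fold or more in 433, which is 5.21%. Either way this was 11.2%. The counts of each list below are to be read beside these shares. The remaining 7373 genes lay within 2-fold. Over all genes the log2 ratio had a median of 0.12 and quartiles of -0.26 and 0.47. At least 4-fold higher were 68 genes and at least 4-fold lower 76, and 17 and 15 passed 8-fold. Bounds made up 65 of the higher and 62 of the lower genes. The split between the directions depended on the scaling. When the median of the signals above the floor was made equal on all arrays, 338 genes were higher and 555 lower, and the median of all genes became -0.01. Quantile normalization gave 401 and 496, with a median of 0.05. Of the 5 arrays, that of 11 DAI gave the highest signal for 412 of the 498 higher genes (82.7%) and the lowest for 317 of the 433 lower genes (73.2%). Over all genes with a ratio, it was the highest of the 5 for 28.2% and the lowest for 23%. All 5 arrays had been scaled to the same mean signal of 535.7, and on each of them 29.8% to 30.5% of the probes exceeded the floor. The Y-linked genes Eif2s3y and Kdm5d were above the floor and Xist was under it on both arrays, as the labelled sex would give.

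**Figure D1:**
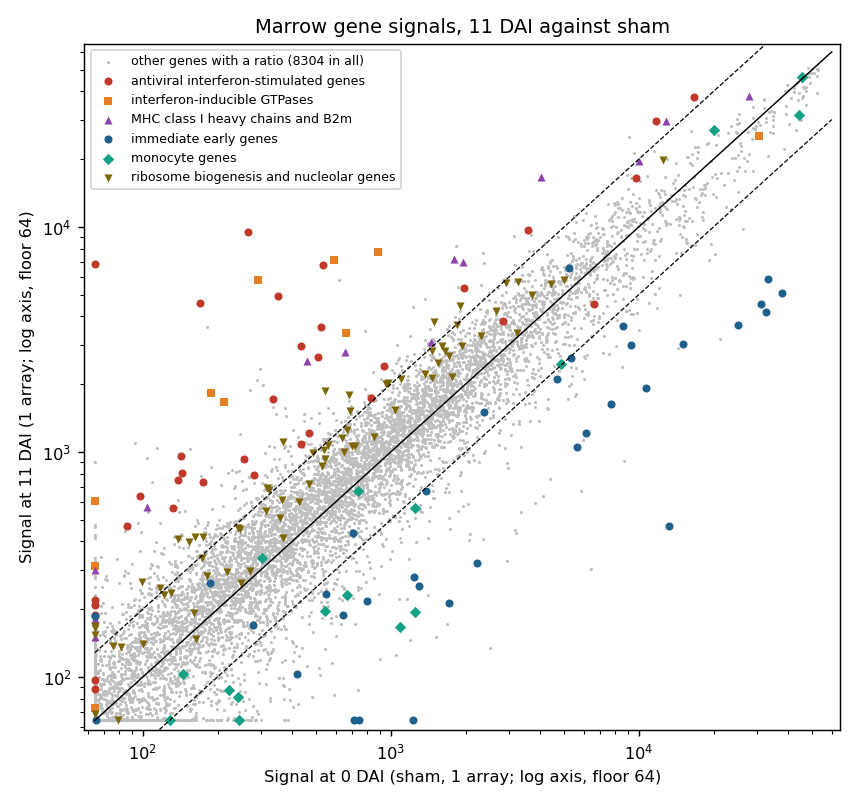
Signal of each gene with a ratio at 11 DAI (vertical, log axis) against 0 DAI (horizontal, log axis), with signals under 64 drawn at 64 and 1 array for each axis. The solid line marks equal signals and the dashed lines 2-fold differences. Antiviral genes, GTPases and MHC class I genes lie above the upper dashed line for most of their members. Below the lower one lie 27 of 34 immediate early genes and 9 of 16 monocyte genes.

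The genes that were furthest above sham marrow were interferon targets. Over 6 lists of interferon-related genes (antiviral genes, GTPases, interferon-gamma targets, ADP-ribosylation and ubiquitin genes, MHC class I chains, and the immunoproteasome with peptide loading), 95 genes had a ratio. Of these, 73 were higher (76.8%, against the 6.0% of all genes). None was lower, and the median ratio on the log2 scale was 1.56. They made up 26 of the 40 highest ratios among genes above the floor on both arrays, and 14.7% of all higher genes. The lists were chosen with earlier results of these data known, so these shares are a description and no independent support.

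Promoters of such genes often hold an interferon-stimulated response element, the site bound by STAT and IRF proteins. Windows of 300 bases around the start of transcription, 250 before it and 50 after it, were taken from RefSeq on build GRCm38.p6 and searched on both strands for its core, which is GAAA, any 2 bases, and GAAA again. The window table matched 6837 of the 8304 genes with a ratio. The core was found in 1079 of 27025 genes with a window (3.99%), in 46 of 405 of the higher genes (11.4%), in 22 of 51 of the genes at least 4-fold higher (43.1%), and in 17 of 344 of the lower genes (4.94%). Among the higher members of the 6 interferon lists it was found in 21 of 58 (36.2%). Among members of these lists that lay within 2-fold it was found in 10 of 18 (55.6%), so its presence did not separate the members that were higher from those that were not. A match is a run of letters and not a shown binding site. Stretches of 100 bases around the match are printed for an IFIT gene, ISG15, a pair of OAS paralogs and 3 immunity-related GTPase genes, to show how the core sits in close relatives. They were not chosen as the carriers with the largest ratios, since Gbp2 and Gbp7, with the core and larger ratios than some of them, are not printed. They read 5′ to 3′ on the strand of the gene, with every match of the core in capitals. They come from chr19:34583328-34583427 on the plus strand for Ifit3, chr4:156200842-156200941 on the minus strand for Isg15, chr5:120887577-120887676 on the minus strand for Oas1g, chr5:120907491-120907590 on the minus strand for Oas1a, chr11:58199477-58199576 on the plus strand for Igtp, chr11:58214868-58214967 on the plus strand for Irgm2 and chr11:48992269-48992368 on the minus strand for Tgtp1.
Ifit3: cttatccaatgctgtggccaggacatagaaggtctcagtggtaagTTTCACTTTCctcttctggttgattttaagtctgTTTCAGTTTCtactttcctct
Isg15: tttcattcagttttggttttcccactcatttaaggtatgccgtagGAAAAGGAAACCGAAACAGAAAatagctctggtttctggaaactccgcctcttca
Oas1g: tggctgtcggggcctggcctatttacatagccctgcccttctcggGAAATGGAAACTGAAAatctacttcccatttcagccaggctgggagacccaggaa
Oas1a: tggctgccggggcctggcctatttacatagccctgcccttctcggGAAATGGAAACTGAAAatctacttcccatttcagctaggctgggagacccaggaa
Igtp: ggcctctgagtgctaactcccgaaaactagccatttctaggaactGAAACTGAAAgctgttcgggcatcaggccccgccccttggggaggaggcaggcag
Irgm2: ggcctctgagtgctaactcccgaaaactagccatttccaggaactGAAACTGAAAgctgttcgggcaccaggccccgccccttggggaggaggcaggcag
Tgtp1: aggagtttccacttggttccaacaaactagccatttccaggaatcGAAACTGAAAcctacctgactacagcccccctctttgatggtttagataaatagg
The stretches of Oas1a and Oas1g were identical at 98 of 100 positions, and so were those of Igtp and Irgm2. Tgtp1 shared an unbroken run of 20 bases with Irgm2, just before the core. Inside that run lies a match of the gamma-activated site, TTCNNNGAA with N for any base, which also stands in the stretch of Igtp. The gamma-activated site was found in 8.42% of the windows of genes with a ratio, in 13.3% of the higher genes, in 29.3% of the higher interferon list members (17 of 58) and in 6.40% of the lower genes. The AP-1 site, TGANTCA, was found in 5.85% of the windows of genes with a ratio, in 9.14% of the higher and 8.14% of the lower genes, in 17.6% of the genes at least 4-fold higher (9 of 51) and in 15.5% of the higher interferon list members (9 of 58). No search pattern contains another.

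Antiviral genes encode products that sense or destroy viral RNA and block viral entry and assembly. At 11 DAI, 29 of 34 members with a ratio were higher (85.3%, against the 6.0% of all genes), and none was lower. Their median log2 ratio was 1.82, and 33 of the 34 had the highest signal of the 5 arrays at 11 DAI. Oasl2 encodes an oligoadenylate synthetase-like protein. Its signal was 264, 1080, 154, 9454 and 254 at 0, 3, 7, 11 and 21 DAI, and its log2 ratio at 11 DAI was 5.16, the largest among genes above the floor on both arrays. The other 2 probes of Oasl2 had smaller ratios, down to 0.06. Ifit3 encodes a protein with tetratricopeptide repeats that binds foreign RNA. Its signals were 169, 891, 142, 4595 and 89.5 on the same arrays, a ratio of 4.76. Isg15, a ubiquitin-like protein that is joined to other proteins, had signals of 351, 764, 382, 4911 and 229, a ratio of 3.81. Usp18 removes ISG15 and restrains the interferon receptor, and its signals were 530.5, 1234, 525, 6792 and 297, a ratio of 3.68. All 4 genes had a lesser peak at 3 DAI and signals at 7 and 21 DAI close to or below those of sham marrow.

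The oligoadenylate synthetases, which switch on an RNA-cutting enzyme, were higher throughout their measured members apart from Oas1b. Oas2 went from 435 at 0 DAI to 2948 at 11 DAI, Oas3 from 132 at 0 DAI to 565 at 11 DAI and Oasl1 from 521 at 0 DAI to 3606 at 11 DAI, with ratios of 2.76, 2.10 and 2.79. Oas1a was under the floor at 0 DAI and at 219 at 11 DAI, a ratio of at least 1.77. For Oas1g the signals were under 64, under 64, 1135, 6853 and 1352, so that this gene was also far above its sham value at 7 and 21 DAI. Its ratio of at least 6.74 rests on the brightest of its probes, and another of them was at 0.13. Oas1a and Oas1g are close paralogs, and their probes may take signal from each other. Oas1b was at least 0.47.

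Sensors of foreign nucleic acid were higher as well. Ddx58, which encodes RIG-I, had a ratio of 2.07, and its regulator Dhx58 one of 2.36. The RNA-activated kinase gene Eif2ak2 went from 509 at 0 DAI to 2640 at 11 DAI, a ratio of 2.37, and Zbp1, a sensor of left-handed nucleic acid, from 86.4 at 0 DAI to 467 at 11 DAI. Ifih1, which encodes MDA5, was under the floor at 0 DAI and at 96.7 at 11 DAI, so its ratio of at least 0.60 is only a bound. The membrane proteins Ifitm1 and Ifitm3, which block viral entry, were bright on both arrays. Ifitm3 went from 16688 at 0 DAI to 37848 at 11 DAI, a ratio of 1.18, and Ifitm1 from 11775 at 0 DAI to 29415 at 11 DAI, a ratio of 1.32, while Ifitm2 stayed within 2-fold at 0.75. Ifi27 was the only member of the list below its sham value, at -0.54, within 2-fold. Ifit1, Mx1, Ifi204, Ifi205, Sp110 and Xaf1 were under the floor on both arrays and have no ratio.

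The interferon-inducible GTPases, large and small enzymes that attack the vacuoles of parasites and bacteria within cells, had the highest median of all lists, 3.05. Of 10 members with a ratio, 8 were higher and none was lower. Gbp2, a guanylate-binding protein gene, had signals of 292, 647, 533, 5813 and 596 at 0, 3, 7, 11 and 21 DAI, a ratio of 4.31. The related Gbp2b was at 4.30, although it was on no list. Igtp, which encodes the immunity-related GTPase IRGM3, had signals of 589, 987, 878, 7094 and 661 and a ratio of 3.59. Ifi47 (3.12), Gvin1 (3.27) and Gbp3 (2.98) were at least 4-fold higher. Irgm2 was at 2.35, and Gbp7 and Tgtp1, under the floor in sham marrow, were at least 3.25 and at least 2.27. The exceptions were Gbp5, which barely passed the floor at 11 DAI, and Irgm1, whose brightest probe had signals of 30451, 22059, 18709, 25256 and 17764, near the upper end of the scale, and a ratio of -0.27. Another probe of Irgm1 was at 3.03. Gbp4, Gbp6, Gbp8, Gbp9 and Iigp1 passed the floor on neither array.

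**Figure D2:**
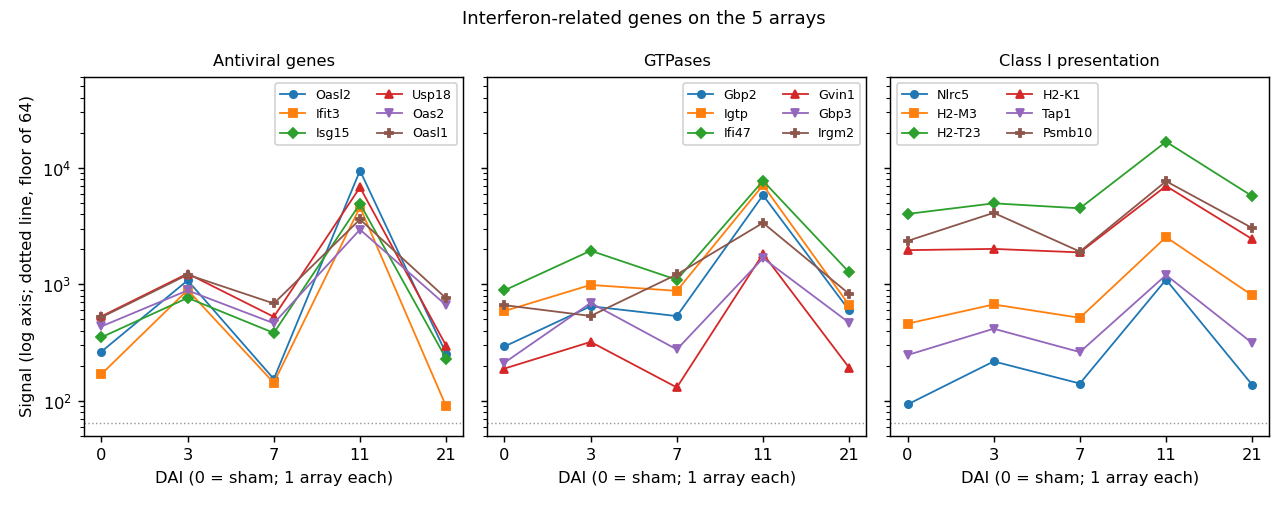
Signals (log axis, drawn no lower than the floor of 64) of 6 antiviral genes, 6 GTPase genes and 6 genes of class I presentation on the 5 arrays, each point 1 array. In all 3 panels the highest point of each gene is at 11 DAI, as for Oasl2 with 9454 there against 264 in sham marrow.

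The list of ADP-ribosylation and ubiquitin genes of the interferon response followed, with 11 of 14 higher, none lower and a median of 1.29. Not all of its members encode enzymes. Lgals3bp, a secreted galectin-binding protein, had signals of 616, 3331, 718, 5814 and 703, a ratio of 3.24. Parp12 (3.18) and Parp14 (2.70) encode ADP-ribosyltransferases, and Uba7, the activating enzyme of ISG15, went from 1838 at 0 DAI to 8232 at 11 DAI, a ratio of 2.16. Dtx3l, the ubiquitin ligase that pairs with PARP9, was at 1.85, and Trafd1, a feedback regulator of innate signaling, at 1.81.

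Among targets that respond chiefly to interferon-gamma, 5 of 12 were higher and none was lower, with a median of 0.75. The chemokine gene Cxcl9 was under the floor in sham marrow and at 474 at 11 DAI, a ratio of at least 2.89. Serpina3f was at least 2.10, the Fc receptor gene Fcgr1 at least 1.59, Cd274, which encodes PD-L1, at 1.56, and Irf1 at 1.07. Nos2, Ido1 and Cxcl11 were under the floor on both arrays. Gch1, which makes the cofactor of nitric oxide synthase, was at -0.31.

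In the signaling chain itself, fewer members differed. Of 19 genes of interferon receptors, JAK kinases, STAT and IRF factors and their inhibitors, 5 were higher and none lower, with a median of 0.33. Irf7, the factor that amplifies the response, had signals of 297, 486, 222, 2340 and 189.8, a ratio of 2.98. Stat2 went from 207 at 0 DAI to 714 at 11 DAI, a ratio of 1.79, and Irf9, a DNA-binding factor of the interferon response, was at 1.20. Cish, a feedback inhibitor of cytokine receptors, was at 1.95 but was higher still at 3 DAI, where its signal was 741. The receptor chain gene Ifngr2 and the factors Irf2 and Irf4 had ratios of -0.45, -0.15 and -0.94. The interferon genes themselves were not measured above background. Ifna2, Ifna4, Ifna5, Ifnb1 and Ifng were under the floor on both arrays, and of 11 interferon and inducing cytokine genes only 4 had a ratio, none of them 2-fold. Il15 was at -0.61 and Il18 at 0.78.

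Display of peptides on MHC class I starts with cutting of proteins by the proteasome, in which interferon replaces the cutting subunits. Its 3 immunoproteasome subunits were higher, Psmb8 from 3134 at 0 DAI to 9113 at 11 DAI, Psmb9 from 391 at 0 DAI to 1060 at 11 DAI and Psmb10 from 2355 at 0 DAI to 7670 at 11 DAI, with ratios of 1.54, 1.44 and 1.70. The activator subunit gene Psme1 was at 0.91. Of the 31 subunits of the constitutive proteasome with a ratio, none was 2-fold higher or lower and the median was 0.39. Tap1, a chain of the peptide transporter, had signals of 247, 415, 262, 1200 and 313, a ratio of 2.28, against 0.80 for the other chain, Tap2. Nlrc5, the transactivator of class I genes, went from 92.9 at 0 DAI to 1095 at 11 DAI, a ratio of 3.56. In all, 9 of 12 genes of the immunoproteasome and peptide loading were higher, none was lower and the median was 1.47.

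Heavy chains of MHC class I and B2m were higher for 11 of 13 members and lower for none, with a median of 1.83, and all 13 had their highest signal of the 5 arrays at 11 DAI. The chain gene H2-K1 had signals of 1962, 2011, 1877, 6971 and 2441, a ratio of 1.83. H2-T23, which encodes Qa-1, went from 4015 at 0 DAI to 16730 at 11 DAI, a ratio of 2.06, and H2-Q7 from 653 at 0 DAI to 2793 at 11 DAI. H2-M3, which presents bacterial formyl peptides, was at 2.47. The light chain gene B2m was bright on both arrays, from 27768 at 0 DAI to 38049 at 11 DAI, a ratio of 0.45, and H2-D1 was just short of 2-fold at 0.96. Class I genes are close paralogs in sequence, and cross-binding between them is possible. The list median passed 2-fold at 11 DAI alone among the irradiated times, with medians of 0.04, 0.04 and 0.29 at 3, 7 and 21 DAI, all set against the same 0 DAI array.

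MHC class II, used by B cells, dendritic cells and macrophages, differed less from sham marrow. Of 14 genes of class II presentation, 1 was higher and none lower, with a median of 0.33. Ifi30, a lysosomal thiol reductase that interferon-gamma also induces, was the higher one, from 3159 at 0 DAI to 6773 at 11 DAI, a ratio of 1.10. Cd74, the invariant chain, was at 0.54 and H2-Eb1 at 0.62.

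Markers of other cell types moved beside these genes. The list of NK cell and cytotoxic granule genes had 7 of 15 members higher (46.7%, against the 6.0% of all genes) and 1 lower. Its median was 0.87, and 8 of the 15 ratios were bounds. Klre1, an NK receptor gene, went from 117 at 0 DAI to 485 at 11 DAI, a ratio of 2.05, and Cd160 was at least 1.96. Ctsw, a protease of cytotoxic cells, was at 1.15, the transcription factor gene Eomes at least 1.17 and the NK receptor gene Ncr1 at least 1.15. Prf1, the pore-forming perforin, was at -0.75, and the chemokine gene Ccl5 was lower at -1.27. Gzmb, Gzmk, Klrb1c and Klrc1 passed the floor on neither array. The summed signal of the list was 26711 at 0 DAI and 22268 at 11 DAI. The part of NK cells in the interferon result was not tested.

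Signals of B cell genes were far below sham marrow at 3 DAI and at or above it at 11 DAI. Mature B cell genes were higher for 4 of 16 members (25%, against the 6.0% of all genes) and lower for none. Their median log2 ratio was 0.50, after medians of -1.87 at 3 DAI and -1.05 at 7 DAI and before 0.23 at 21 DAI. The receptor gene Fcmr, which binds IgM, had signals of 3658, 439, 488, 9203 and 5388, a ratio of 1.33. Cd40, the costimulatory receptor of B cells, had signals of 1056, 307, 317, 2971 and 1827, a ratio of 1.49, and Cd22, an inhibitory receptor, went from 337 at 0 DAI to 931 at 11 DAI, a ratio of 1.47. Ms4a1, which encodes CD20, was at 1.25. Others were close to sham, such as Cd72 (0.23), Pou2af1 (0.29) and Btk (-0.02). The summed signal of the list was 35149 at 0 DAI and 50671 at 11 DAI, and 13 of the 16 genes had the highest signal of the 5 arrays at 11 DAI. When the mean of the log2 signals at 3, 7 and 21 DAI was the baseline, 10 of 16 were at least 2-fold higher, against 4.02% of all genes (and 5.05% lower), and the median was 1.55.

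Genes of B cell precursors lay within 2-fold throughout, 13 of 13, with a median of 0.40. Il7r, the receptor of the cytokine that early B cells need, was at 0.90, Rag1, which cuts the immunoglobulin loci, at 0.56 and the surrogate light chain gene Igll1 at 0.56. Igll1 and Vpreb1 had been highest at 7 DAI, with 11704 and 5927 against 2326 and 1258 in sham marrow. Cxcr5, which guides B cells into follicles, was at 1.55, and Ly6d, a marker of B lineage cells and plasmacytoid dendritic cells, was at 2.14, from 783 at 0 DAI to 3461 at 11 DAI. Siglech, which marks plasmacytoid dendritic cells, was at -0.82. Of the plasma cell genes only Jchain was 2-fold higher, at least 1.22, with Xbp1 at 0.34 and Irf4 at -0.94, and Sdc1, Prdm1 and Tnfrsf17 were under the floor on both arrays.

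T cell genes gave no common direction. Of 13 with a ratio, 3 were higher and 2 lower, and Cd4, Cd8a, Cd5, Cd28, Cd247, Ctla4, Icos and Gata3 were under the floor on both arrays. Thy1 had signals of 154, 817, 309.9, 1034 and 253, a ratio of 2.75, Zap70, the kinase below the T cell receptor, was at 1.63 and the adhesion gene Cd2 at 1.05. Cd3d, a chain of the CD3 complex, had signals of 5949, 3044, 8263, 1129 and 5052, a ratio of -2.40, and with Cd6 it was 1 of the 2 T cell genes that were lowest at 11 DAI. The other CD3 chains, Cd3e and Cd3g, were at -0.05 and 0.10. Ccr7, the homing receptor of lymph nodes, was at -2.14 and low at all 4 irradiated times.

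**Figure D3:**
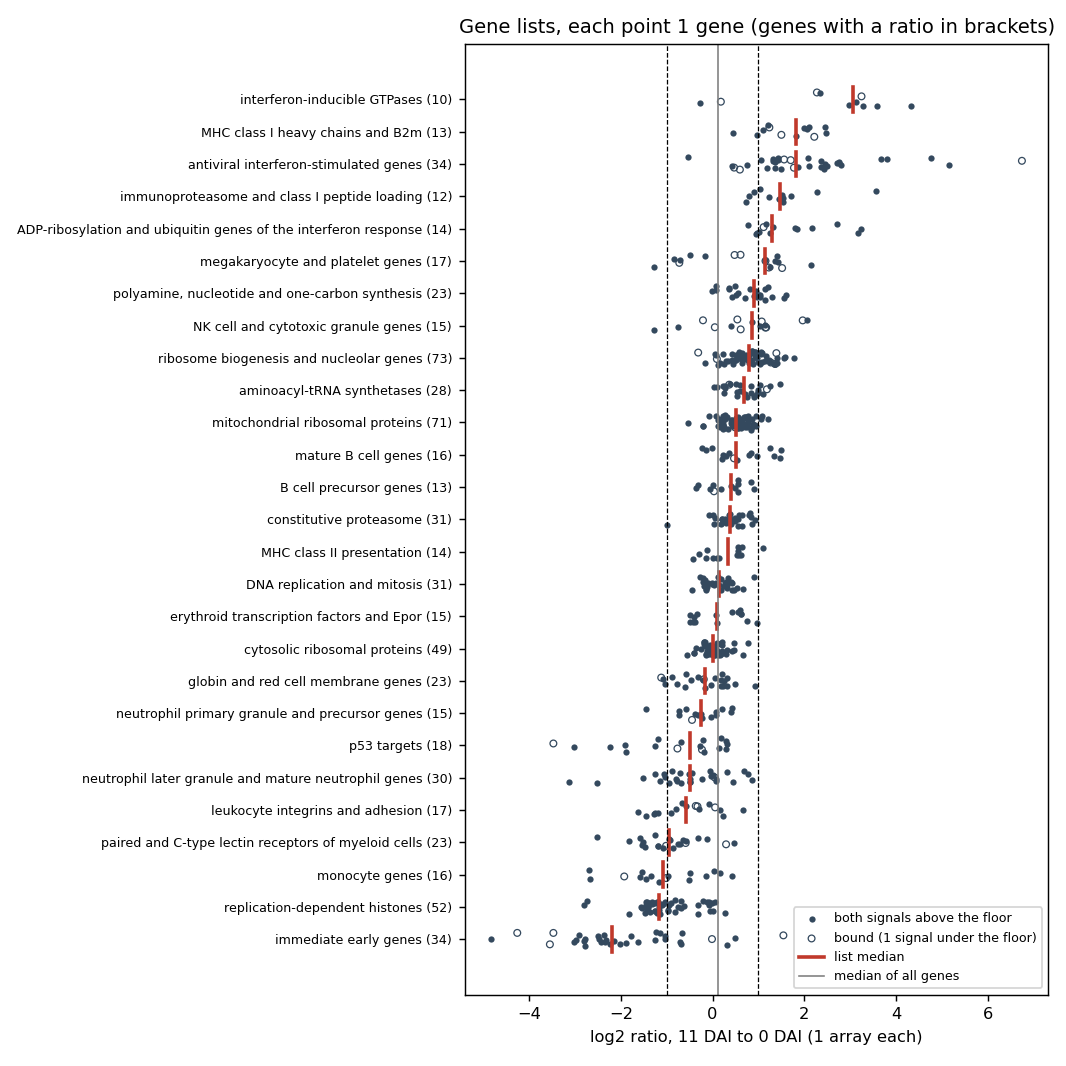
log2 ratio of 11 DAI to 0 DAI (horizontal) for the members of 27 gene lists, each point 1 gene, with open points for bounds and a red bar at the list median. The dashed lines mark 2-fold and the grey line the median of all genes at 0.12. The interferon lists lie to the right, the immediate early, histone and monocyte lists to the left, and cytosolic ribosomal proteins sit at 0.00.

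Some genes that build ribosomes were higher, though most of those measured lay within 2-fold. This list, and those of tRNA synthetases, of nucleotide and polyamine synthesis, of mitochondrial ribosomal proteins, of myeloid receptors and of contractile proteins, were written after the values had been seen. Of 73 genes of ribosome biogenesis and the nucleolus with a ratio, 20 were higher (27.4%, against 6.0% of all genes), 53 lay within 2-fold, none was lower, and the median was 0.79 against 0.12 for all genes. The processing factor gene Rrp12 had signals of 544, 1494, 1024, 1864 and 996, a ratio of 1.78. Grwd1, a histone-binding assembly factor, went from 368 at 0 DAI to 1103 at 11 DAI, a ratio of 1.58, and Rbm19 from 139 at 0 DAI to 409.7 at 11 DAI, a ratio of 1.56. Pelp1 and Nip7, factors of the large subunit, were at 1.41 and 1.40, and the RNA methyltransferase gene Nsun2 was at least 1.39. Among the brightest members, Npm1, a nucleolar chaperone, was at 0.65, Nop10 at 0.22, Gar1 at 0.80, Nhp2 at 0.95 and Ddx47 at 0.34. In 68 of the 73 genes the log2 ratio was above the median of all genes, in a list written with these values known. With the 3 other irradiated arrays as baseline, 6 of 72 were higher, against 4.02% of all genes.

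The protein parts of the ribosome showed no such difference. None of 49 cytosolic ribosomal protein genes was 2-fold higher or lower, and their median was 0.00, with Rps29 and Rpl41 near the upper end of the scale at ratios of 0.00 and -0.01. Rpl4 was at 0.77. Mitochondrial ribosomal proteins were higher for 3 of 71, a share of 4.23% that lies below the 6.0% of all genes, and lower for none, with a median of 0.52. They were Mrps18b, Mrps34 and Mrps10, with ratios of 1.20, 1.08 and 1.07. Respiratory chain subunits were within 2-fold in 63 of 63, with a median of 0.19.

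Enzymes that feed growth lay beside the biogenesis genes. In polyamine, nucleotide and one-carbon synthesis, 9 of 23 genes were higher and none lower, with a median of 0.91. The median was nearly as high at 3 DAI, at 0.82, and with the 3 other irradiated arrays as baseline it was 0.42 with 1 gene higher. Cad, which starts pyrimidine synthesis, had signals of 166, 341, 260.1, 499.8 and 189, a ratio of 1.59, and Adsl, an enzyme of purine synthesis, 234, 682, 353, 689 and 428, a ratio of 1.56. Srm, the spermidine synthase, went from 1444 at 0 DAI to 3522 at 11 DAI, a ratio of 1.29, and Shmt2, which supplies one-carbon units in mitochondria, was at 1.22, while Odc1, the rate-limiting enzyme of polyamine synthesis, was at -0.01. Of the aminoacyl-tRNA synthetases, 5 of 28 were higher and none lower, with a median of 0.68. Wars, which interferon-gamma is known to induce, was at 1.46, and Eprs, Pars2, Iars and Gars at 1.25, at least 1.18, 1.10 and 1.03. Myc, a transcription factor known to drive such genes, was under the floor in sham marrow and at 187 at 11 DAI, a ratio of at least 1.54. Any part of Myc in the ratios of these genes was not tested. The cyclin genes Ccnd2 and Ccnd1 were at 2.07 and 1.75, but their list gave no common direction. Among its 17 G1 cyclin and CDK inhibitor genes with a ratio, 2 exceeded sham marrow by 2-fold or more. As many, 2, fell short of it by that size, and 13 lay within 2-fold. The middle value of the list was -0.0003. Another probe of Ccnd2 was at -0.22. Genes of DNA replication and mitosis did not differ by 2-fold in any of 31 members, and their median of 0.13 lay close to the 0.12 of all genes. The largest was Plk1, a mitotic kinase, at 0.90.

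Monocyte genes were lower. Of 16 with a ratio, 9 were lower (56.3%, against the 5.21% of all genes) and none was higher, with a median of -1.08, and 11 of the 16 had the lowest signal of the 5 arrays at 11 DAI. Cd14, the co-receptor for lipopolysaccharide, had signals of 1086, 1597, 446, 167 and 666, a ratio of -2.70. Fn1, fibronectin, had signals of 1248, 1061, 1237, 195 and 1572, a ratio of -2.68, and a single low value at 11 DAI. Csf1r, the receptor of the monocyte growth factor, went from 1254 at 0 DAI to 562 at 11 DAI, a ratio of -1.16. The chemokine receptor genes Ccr2 and Cx3cr1 were at -1.34 and at most -1.92, and the integrin gene Itgam at -1.46. Lyz1, Lyz2 and Ly6c1, which were bright on both arrays, were at 0.03, -0.50 and 0.43. Against the other 3 irradiated arrays the median was -1.09 with 9 of 16 lower, against 5.05% of all genes. The list was thus low at 11 DAI with either baseline.

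Receptors that myeloid cells share were also low, in a list written after the values had been seen. It is therefore no separate support for the monocyte result. Of 23 paired and C-type lectin receptors and their adaptors, 11 were lower (47.8%, against the 5.21% of all genes) and none higher, with a median of -0.95. Trem1, which amplifies inflammatory signals, went from 2362 at 0 DAI to 409.7 at 11 DAI, a ratio of -2.53, and Tyrobp, the adaptor that several of them use, from 6023 at 0 DAI to 2108 at 11 DAI, a ratio of -1.51. Cd300a was at -1.82, Clec4a1 at -1.58 and Lilr4b at -1.48. Of 17 leukocyte integrins and adhesion genes, 5 were lower and none higher, with a median of -0.59, among them the neuropilin gene Nrp1 at -1.62, the junction protein gene Jaml at -1.27 and Sirpa, the receptor for CD47, at -1.18.

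**Figure D4:**
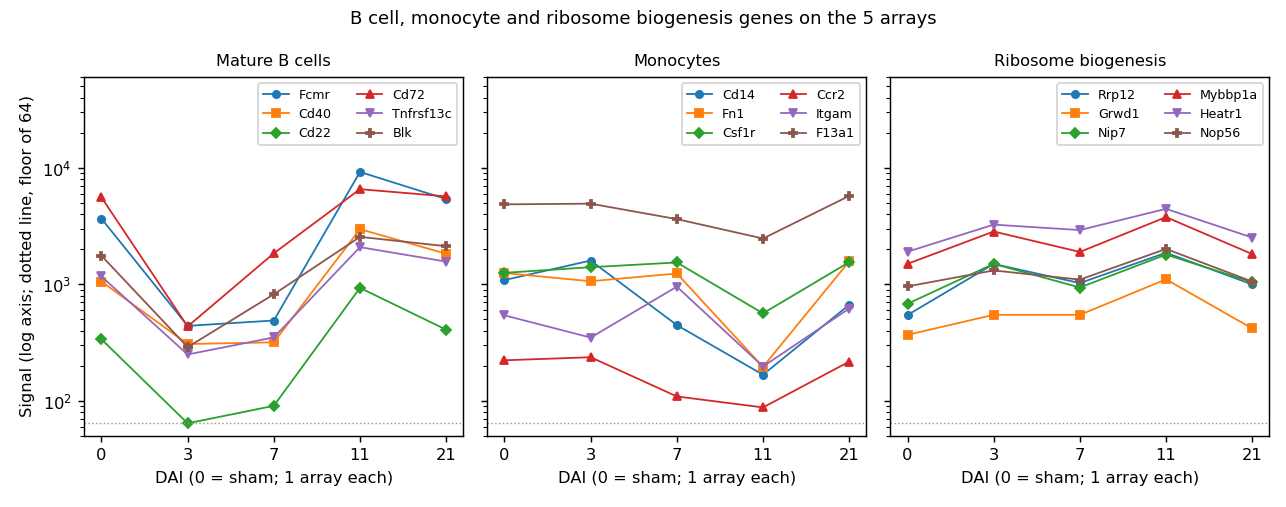
Signals (log axis, drawn no lower than the floor of 64) of 6 mature B cell genes, 6 monocyte genes and 6 genes of ribosome biogenesis on the 5 arrays, each point 1 array. The B cell genes dip at 3 DAI and are above sham marrow at 11 DAI, all 6 monocyte genes have their lowest point at 11 DAI, and the ribosome biogenesis genes have their highest there.

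The medians of the neutrophil lists lay below sham marrow by less than that of the monocyte list. Of 30 later granule and mature neutrophil genes, 7 were lower (23.3%, against the 5.21% of all genes) and none higher, with a median of -0.50. G0s2, an inhibitor of fat breakdown, had signals of 5841, 1948, 1362, 671 and 1178, a ratio of -3.12, though it was low at all irradiated times. Olfm4, a granule protein gene, was at -1.52 and Csf3r, the receptor of the neutrophil growth factor, at -1.15. The brightest members, Lcn2, Ltf, Ngp and S100a9, with signals over the upper part of the scale, were at -0.06, 0.07, -0.03 and -0.24, and a change of theirs would be hard to see there. Of 15 primary granule and precursor genes, 1 was lower (6.67%, close to the 5.21% of all genes) and none higher, with a median of -0.26. It was Fcnb, a ficolin gene, from 11846 at 0 DAI to 4340 at 11 DAI, a ratio of -1.45. Elane, Prtn3 and Ctsg, the serine proteases of the first granules, were at -0.22, 0.08 and 0.42. S100a4, a calcium-binding protein gene of motile cells, had signals of 904, 1042, 377, 119.8 and 759, a ratio of -2.91.

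Chemokine ligands moved both ways. Of 13 with a ratio, 4 were higher and 6 lower, and 22 others passed the floor on neither array. These are 30.8% and 46.2%, against 6.0% and 5.21% of all genes. The macrophage inflammatory protein genes Ccl3 and Ccl4 had signals of 6409, 3500, 249.9, 302 and 608 and of 4378, 5198, 325, 759 and 493, with ratios of -4.41 and -2.53. The neutrophil attractant gene Cxcl2 was at -2.83, and Ccl6 and Ccl9, which myeloid cells make throughout, were at -2.39 and -1.47. On the higher side stood Cxcl9, the platelet chemokine genes Ppbp and Pf4 at 2.15 and 1.15, and Xcl1, a product of NK and T cells, at 1.04. Against the mean of the arrays of 3, 7 and 21 DAI, 3 of 18 chemokine genes were higher and 3 lower. Cxcl2 and Ccl4 were then at -0.94 and -0.31, and Ccl3 and Ccl6 at -1.42 and -1.81. Among inflammatory cytokine and NF-kB feedback genes, 6 of 22 were lower (27.3%, against 5.21% of all genes) and 2 higher (9.09%, against 6.0%). The lower ones included Il1b, from 4088 at 0 DAI to 637 at 11 DAI, a ratio of -2.68, Tnf at -2.22, Osm at -2.31, Il1rn at -1.99 and the NF-kB inhibitors Nfkbiz and Tnfaip3 at -3.17 and -1.94. The higher ones were Casp4, an inflammatory caspase gene that interferon induces, at 1.62, and Bcl3 at 1.45. The sham array gave the highest signal of the 5 for 7 of these 22 genes. With the 3 other irradiated arrays as baseline, 4 of 26 genes of this list were lower, against 5.05% of all genes. None was higher, and the median was -0.11. Of the Toll-like receptor genes, Tlr1 was higher at 1.85, with Tlr2 and Tlr4 at -0.65 and 0.61, and the inhibitor Irak3 was lower at -1.34.

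Resident macrophages of marrow clear dead cells and recycle iron. Of 16 of their genes with a ratio, 5 were higher and 2 lower at 11 DAI, and 7 ratios were bounds. These are 31.25% and 12.5%, against 6.0% and 5.21% of all genes. The median was 0.09, but -0.75 over the 9 genes above the floor on both arrays. Against the mean of the arrays of 3, 7 and 21 DAI, 6 of 19 were lower and none higher, with a median of -0.69. With that baseline 5.05% of all genes were lower. The complement genes C1qb and C1qc had signals of under 64, 785, 321, 424 and 205 and of 67.6, 788, 334, 339.6 and 158, with ratios of at least 2.73 and 2.33, and both were highest at 3 DAI. The phagocytic receptor gene Axl went from 247 at 0 DAI to 565 at 11 DAI, a ratio of 1.20, after 2138 at 3 DAI, and Siglec1, an interferon-induced sialic acid receptor of macrophages, was at least 1.05. The lower ones were Trf, transferrin, at -1.48, and Hmox1, which breaks down heme, at -1.29. Mertk, Marco, Timd4 and Vsig4 were under the floor on both arrays, and the iron exporter gene Slc40a1 was at -0.21.

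Immediate early genes are transcribed soon after a cell is stimulated, without new protein being made. They held the lowest median of all lists. Of 34 with a ratio, 27 were lower and 1 higher, with a median of -2.19. Fosb had signals of 13195, 3277, 92, 466 and 472, a ratio of -4.82, the lowest among genes above the floor on both arrays. Egr2 and Atf3 were under the floor at 11 DAI, with ratios of at most -3.55 and at most -4.26. Dusp1, a phosphatase that ends kinase signaling, had signals of 32620, 24802, 11927, 4170 and 6602, a ratio of -2.97, and Klf2, a factor of quiescent lymphocytes, 25149, 7738, 2680, 3670 and 4416, a ratio of -2.78. The exception was Myc, above. The sham array gave the highest signal of the 5 for 27 of the 34, so these ratios rest on it as much as on the 11 DAI array. Against the mean of the arrays of 3, 7 and 21 DAI the median of the list was -0.34, with 5 lower and 1 higher. Fosb was then at -0.16 and Egr1 at 0.66, while Dusp1, Klf6, Atf3, Ier2 and Fosl2 were still lower at -1.58, -1.06, -1.4, -1.33 and -1.5.

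The cyclic AMP response element, TGACGTCA, stands in 4 of 24 windows of the lower immediate early genes (16.7%) and in 3.74% of those of all genes with a ratio. A CArG box, the site of serum response factor, was found in 3 of the 24 (12.5%) and in 1.76% of the windows of genes with a ratio. The core of the interferon-stimulated response element was also found in 3 of the 24, against 3.99%. The CArG box was added to the motifs after the values had been seen. Stretches with the response element are shown for Plk2, from chr13:110394937-110395034 on the plus strand, and for Dusp1, from chr17:26508563-26508660 on the minus strand, of the same build, as its lowest carriers, with the element in capitals.
Plk2: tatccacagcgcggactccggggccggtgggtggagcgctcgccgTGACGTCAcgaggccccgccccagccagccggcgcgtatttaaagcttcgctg
Dusp1: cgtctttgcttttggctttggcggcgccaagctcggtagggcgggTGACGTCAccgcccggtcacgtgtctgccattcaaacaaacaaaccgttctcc
Plk2, a kinase gene, was at 709 in sham marrow and under the floor at 11 DAI.

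Heat shock chaperones were mixed. The stress-inducible Hspa1a and Hspa1b, which are near-identical copies, had signals of 8686, 1146, under 64, 915 and 272 and of 3185, 283, under 64, 436 and 99.8, with ratios of -3.25 and -2.87. Both were lower still at 7 and 21 DAI. Against the other irradiated arrays they were thus higher, at 1.75 and 1.84. Hspa9, the chaperone of mitochondria, was higher, from 5467 at 0 DAI to 11159 at 11 DAI, a ratio of 1.03. Of the genes of stress in the endoplasmic reticulum, Creld2, Sdf2l1 and Hyou1 were higher at 1.28, 1.28 and 1.09, and Dnajb9 was lower at -1.34, out of 18.

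Replication-dependent histone genes were lower for 31 of 52 (59.6%, against the 5.21% of all genes) and higher for none, with a median of -1.16. H2bc4 went from 3160 at 0 DAI to 451 at 11 DAI, a ratio of -2.81, and the linker histone gene H1f2 had signals of 21263, 14990, 6536, 3176 and 9662, a ratio of -2.74. As with the immediate early genes, the list was low at the other irradiated times too, and its median against the mean of those arrays was -0.09, with 2 genes lower. Most transcripts of these genes end without a poly(A) tail, so that a label made from an oligo(dT) primer covers only part of them. The H2a genes H2ac10, H2ac20 and H2ac7 lay near the upper end of the scale, at 0.00, -0.08 and -0.07. Their sequences are near-identical, and cross-binding between copies is possible.

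Targets of p53, which radiation is known to activate within hours, had no higher member at 11 DAI. Of 18 with a ratio, 7 were lower (38.9%, against the 5.21% of all genes) and none higher, with a median of -0.48. Plk2, Plk3, Gadd45a and Btg2, which are also on the immediate early list, were among the 7. The others were Cdkn1a, the cell cycle inhibitor p21, with signals of 584, 2669, 355, 246 and 281, a ratio of -1.25, Bbc3, which encodes PUMA, at -1.90, and the death receptor gene Fas at -1.18. Cdkn1a was high at 3 DAI. Mdm2 was at -0.19. Among 22 DNA repair genes, Lig3 was 2-fold higher at 1.04 and none was lower.

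Erythroid genes were near their sham values. None of 15 erythroid transcription factor genes and none of 16 heme synthesis genes was 2-fold higher or lower, with medians of 0.10 and 0.17. Gata1 was at 0.74, Klf1 at 0.61, Epor at 0.63 and Gfi1b at 0.97, while Alas2, the first enzyme of heme synthesis in red cell precursors, was at -0.85. Of 23 globin and red cell membrane genes, 3 were lower, Rhd, Tmcc2 and Bpgm, at -1.09, -1.03 and at most -1.12, and the median was -0.17. The medians of the membrane, factor and heme lists were -1.08, -0.44 and -0.56 at 3 DAI, and -1.89, -1.02 and -1.02 at 21 DAI.

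Megakaryocyte and platelet genes were higher for 9 of 17 (52.9%, against the 6.0% of all genes) and lower for 1. Their median was 1.15, and 6 ratios were bounds. Ppbp had signals of 138, 3670, under 64, 613 and 591, a ratio of 2.15, and Pf4 signals of 1908, 4471, 231, 4228 and 1712, a ratio of 1.15. The integrin gene Itga2b, the receptor chain gene Gp5 and Treml1 were at 1.40, 1.42 and 1.37, and Vwf at 1.25. The lower gene was F5, clotting factor V, at -1.28. Tubb1, the tubulin of platelets, was at least 1.15, after 791 at 3 DAI. The list was higher at 3 DAI as well, with a median of 1.23, and was at -0.27 at 7 DAI. With the 3 other irradiated arrays as baseline its median was -0.37, and with a floor of 100 it was 0.58. The summed signal of the list was 11018 at 0 DAI and 11787 at 11 DAI.

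Stem and progenitor genes were higher for 2 of 13 and lower for none, with a median of 0.41. These 2 were Slamf1 at least 1.56 and Ifitm1, which is an interferon target. Cd34, Flt3, Procr, Mecom, Hlf and Hoxa9 did not pass the floor on either array, so the rarest cells are not seen in these values. Meis1 was at 0.80. Of the receptors of hematopoietic cytokines, Csf2rb2 was higher at 1.5, and Csf1r and Csf3r were lower.

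Cells of the bone and its vessels gave few measured genes. Of 20 stromal and niche genes 5 had a ratio, of 13 osteoblast genes 2, and of 14 adipocyte genes 3. Cxcl12, the chemokine that holds stem cells in the marrow, was at -0.05 and Adipoq at -0.15, although both had been far above sham at 3 DAI. Hgf was at most -1.76 and Bglap2, osteocalcin, at -1.46. Ctsk, the collagen-cutting protease of osteoclasts, had signals of 87, 8628, 192, 289.5 and under 64, a ratio of 1.73. The 17 extracellular matrix genes with a ratio had a median of -0.32, and 3 were higher and 2 lower. Timp3, Mmp13 and Mmp14 were higher at 1.91, 1.54 and 1.47, and Fn1, given above, and Timp2 were lower, the latter at -1.56. Contractile protein genes were lower for 5 of 9 with a ratio and higher for 1. Their median was -1.14. With a pseudocount of 50 in place of the floor it was 0.01, over all 22 members with a probe, 13 of which had no ratio. Acta2, smooth muscle actin, had signals of 3340, 2011, 5383, 541 and 2891, a ratio of -2.63, and the muscle gene Myl2 was at most -2.09, Tnni2 at -1.66 and Mylk at 1.44.

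Some of the largest ratios belong to genes on no list. On the higher side, Prok2, a secreted protein of neutrophils that acts on progenitors, had signals of 104, 98.4, 164, 936 and 324, a ratio of 3.17, and Upp1, which breaks down uridine, 289, 583, 426, 2088 and 1105, a ratio of 2.85. Epsti1 and Phf11d, which interferon induces in mice, were at 2.75 and 2.79, and Gimap7, a GTPase gene of lymphocytes, at 2.40. Wnt10a and the protamine gene Prm1 were under the floor in sham marrow and were at least 2.70 and at least 2.86. On the lower side, Hcar2, the niacin receptor gene, had signals of 2509, 524, 244, 134 and 109, a ratio of -4.22, and was below sham marrow at all irradiated times. Neat1, a long noncoding RNA of nuclear paraspeckles, had signals of 1679, 444, 885, 172 and 452, a ratio of -3.29. Trps1 and Mid1 were at -3.08 and -3.06, Trib1, a regulator of myeloid differentiation, at -2.69 and the adhesion gene Ncam1 at -2.35. Acot1, a thioesterase gene, and Gdpd3 were lowest at 11 DAI, at -2.61 and -2.48.

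Grouped by the letters before the first digit of the symbol, 10 Ifi genes had 7 higher members and none lower, 10 Psmb genes had 3 higher, and 14 Dusp genes and 10 Klf genes had 4 and 3 lower members with none higher. Families of at least 8 genes with a ratio were taken, and those named are examples. Over all genes 6.0% were higher and 5.21% lower. Others with large shares were 9 Hspa genes, 1 higher and 3 lower, and 9 Cyp genes, 3 lower and none higher. The families repeat genes given above, such as Psmb8, Psmb9, Psmb10, Dusp1 and Klf2, and are no separate support. The immediate early ratios, as of Dusp1 and Klf2, rest on the sham array as much as on that of 11 DAI. The Ifi genes with the largest ratios included Ifi44l at least 2.74 and Ifi214 at 2.37 beside Ifi47. Parp genes were split, with Parp12, Parp14 and Parp10 higher and Parp8 lower, the last at most -1.05.

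When the mean of log2 signals at 3, 7 and 21 DAI replaced the sham array, 353 of 8788 genes were higher at 11 DAI (4.02%) and 444 lower (5.05%). Of the genes called against sham, 215 of the 498 higher and 222 of the 433 lower were also at least 2-fold off this baseline in the same direction. The antiviral, GTPase, MHC class I and monocyte lists stayed past 2-fold, with medians of 1.51 for antiviral genes, 2.37 for GTPases, 1.73 for MHC class I and -1.09 for monocyte genes. The median of ribosome biogenesis genes was 0.60, that of the mature B cell genes was 1.55, and those of immediate early, histone and platelet genes shrank or turned, as given above. The 2 baselines differ in what they share, since every ratio to 0 DAI rests on 1 sham array.

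**Figure D5:**
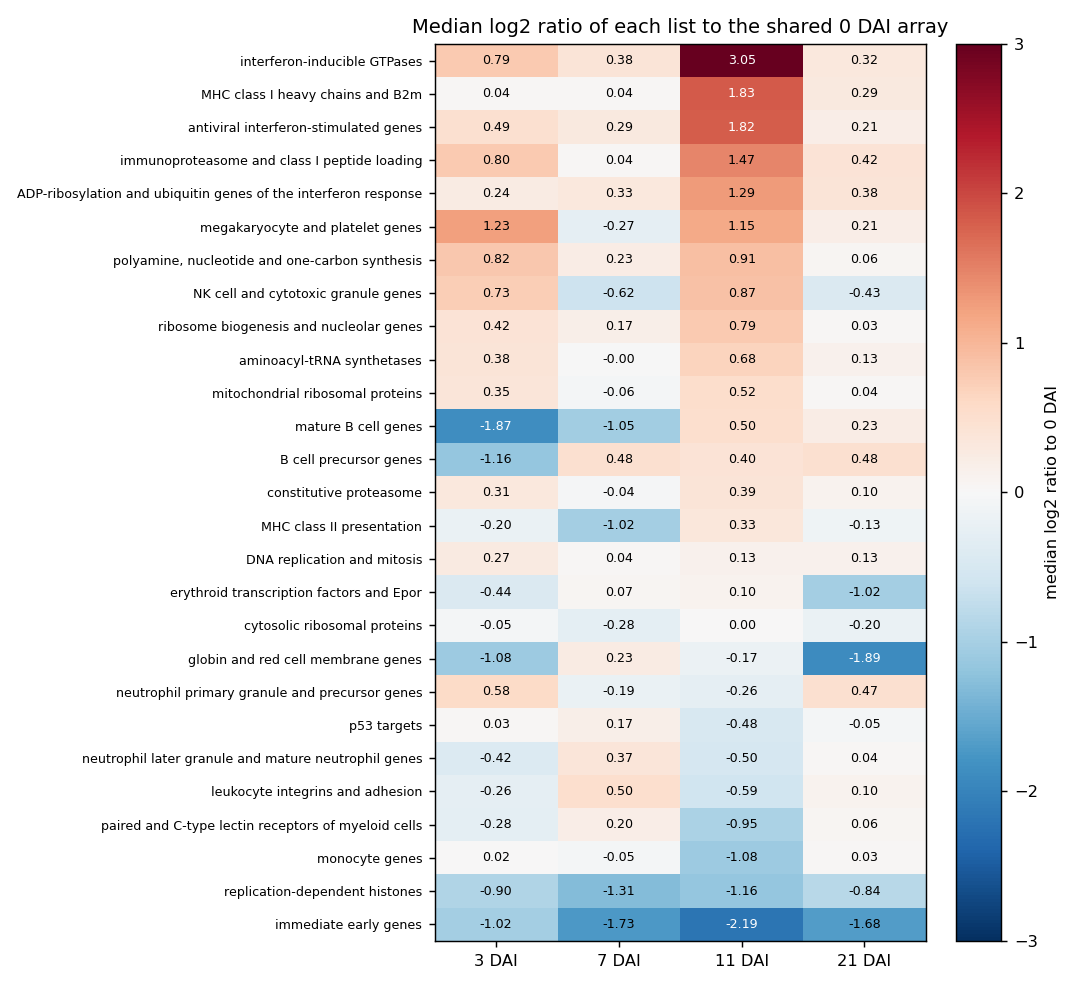
Median log2 ratio to the shared 0 DAI array of 27 gene lists (rows) at 3, 7, 11 and 21 DAI (columns), 1 array per time. Red is higher and blue lower than sham marrow, and the number in each cell is the median. The interferon lists are darkest red at 11 DAI, with 3.05 for GTPases, and immediate early genes are blue at all 4 times.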

How the data were processed

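Marrow RNA was labelled from an oligo(dT) primer and hybridised to Illumina MouseWG-6 BeadChips, 1 array per time. The authors read the arrays in GenomeStudio 2010.2 with average normalization, and the deposited values are background-subtracted probe intensities on a linear scale, some of them below 0. A second deposited table of non-normalized signals has 10 columns that no label ties to a sample, and they were not used. Probes were named from the platform annotation, where 18 probes had several symbols and 10378 none, and neither kind was named. Arrays carry no depth, and their number limits the precision.

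Signals under 64 were set to 64 and log2 ratios were taken, with the brightest probe for each gene and 2-fold as the size rule, in Python 3.11.15 with pandas 2.3.3, numpy 2.4.6 and matplotlib 3.10.9. The script was tested on simulated data. No test was run, since each group has 1 array. The study's methods give several mice per time for collecting enough cells, and elsewhere RNA of 4 irradiated mice and 1 sham mouse, so how many animals an array holds is not settled. Gene lists and members were chosen with earlier results of these data known, and 6 lists and the CArG motif were added after the values were seen. Named genes were drawn from fixed groups, and not every gene of these groups is named. The groups were the 40 highest and 40 lowest ratios above the floor on both arrays. They also held the 20 brightest genes with 1 signal under the floor in each direction. Of each list they held the 5 brightest, the 6 largest ratios in size and any member called against the list median. Ccrl2 at -3.34 and Rgs1 at -3.04, for instance, are among the 40 lowest and are not described above. Added to these were defining markers under the floor and the 4 largest ratios of each gene family. Cd3e, Cd3g, Cd6, Fosl2, Gbp5, H2-K1, Ier2, Ifi27, Ifih1, Oas1b, Oas3, Siglec1 and Tubb1, and some list members under the floor, fall outside this rule and were chosen after their values were seen. The alternatives were 2 other scalings, floors of 100 and 32, a pseudocount of 50 without a floor, the mean over probes, both signals above the floor, size rules of 1.5-fold and 3-fold, and a baseline of the arrays of 3, 7 and 21 DAI.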

Additional observations from a re-analysis of the deposited data

Results flagged for a closer look

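Some named genes were at least 2-fold off sham marrow at 11 DAI and at least 2-fold off it in the other direction at another time. Each comparison rests on the same 0 DAI array and 1 array per time, and the difference between the times was not tested. B cell genes held the clearest set. Fcmr was at 1.33 at 11 DAI, -3.06 at 3 DAI and -2.91 at 7 DAI on the log2 scale. Cd40 was at 1.49, with -1.78 and -1.73 at the same times, and Cd22 at 1.47, with -2.40 and -1.90. Ly6d was at 2.14 at 11 DAI and -1.45 at 7 DAI, and Ifi30, of MHC class II presentation, at 1.10 and -1.19.

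Among platelet genes, 3 differed in this way, while the median of their list at 7 DAI was -0.27. Pf4 was at 1.15 at 11 DAI against -3.05 at 7 DAI, Ppbp at 2.15 against -1.11 and Treml1 at 1.37 against -1.18. The T and NK cell gene Cd2 was at 1.05 against -1.71 at 7 DAI, and Xcl1 at 1.04 against -1.11 at 21 DAI.

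Others were low at 11 DAI after a high value. Cdkn1a was at -1.25 at 11 DAI and 2.19 at 3 DAI, Bglap2 at -1.46 and 1.84 at 3 DAI, Timp2 at -1.56 and 1.36 at 7 DAI, and Fosl2 at -1.04 and 1.12 at 7 DAI.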

How the results depend on the processing

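No paired analysis was possible because each group had 1 array. With a size rule of 3-fold, 115 genes were higher and 142 lower, and with 1.5-fold 1512 and 1036. Of the 931 genes called, 830 were still called under quantile normalization, 771 with arrays scaled to a common median, 784 with a floor of 100, 643 with a pseudocount of 50 and 800 with the mean over probes, and none of them changed sign under these. Against the arrays of 3, 7 and 21 DAI, 437 were still called and 54 had the opposite sign. Of 10 list medians that passed 2-fold in the main setting, 7 did not under at least 1 alternative, and those of antiviral genes, GTPases and MHC class I passed it under all that were run. With a pseudocount of 50, every list member with a probe has a value, also those under the floor on both arrays. Over this larger set the median was 0.998 for ADP-ribosylation and ubiquitin genes and -0.96 for monocyte genes. It was 0.52 for megakaryocyte and platelet genes and 0.011 for contractile protein genes, the last of the opposite sign. Contractile protein genes were at -0.92 with a floor of 100, a floor of 32 or both signals above the floor, and megakaryocyte and platelet genes at 0.58 with a floor of 100 and 0.96 with the mean over probes. Against the other irradiated arrays the medians were 0.90 for the immunoproteasome list, -0.34 for immediate early genes, -0.095 for replication-dependent histones, -0.87 for contractile protein genes and -0.37 for megakaryocyte and platelet genes, the last of the opposite sign. The named genes that turned sign with that baseline were Axl (-0.69), C1qc (-0.030), Ccr7 (0.37), Ctsk (-0.71), Egr1 (0.66), Hspa1a (1.75), Hspa1b (1.84), Mylk (-0.28), Rhd (0.26), Tmcc2 (0.76) and Tubb1 (-0.45). The cause was not tested for any of these. The baseline alternative replaces 1 array by the mean of 3 and also changes which genes have a value. Signals near the floor, and those at the upper end of the scale, show differences least well.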
